A study of Mus musculus with 9 samples.

Results

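The genes described here are 8 that are used to recognise regulatory T cells (Tregs), and above all those of thymic origin: Foxp3, Ikzf2 (Helios), Ikzf4 (Eos), Nrp1 (neuropilin-1), Lrrc32 (GARP), Gpr83, Izumo1r (folate receptor 4) and Capg. They were chosen by name, with earlier results of these data known. Each was read from its array feature that the platform annotation pairs with that gene alone. All 8 of 8 had such a feature and passed the filter on dim genes, out of 22180 genes with a feature of their own and 12792 that were tested. RNA came from C57BL/6 Tregs of the small and large intestinal lamina propria, sorted on a red fluorescent reporter joined to Foxp3. Each of 3 genotypes had 3 arrays: wild type (WT), Y3, and Y3 combined with loss of CD103 (Y3/CD103-/-). The labels do not describe Y3, which is read from the title of the series as an alteration of the IL-2 receptor β chain. Both altered groups carry it. CD103 is the αE chain of an integrin that binds E-cadherin, and its gene is Itgae. Age, pooling of animals and the construction of the alleles were not given in the sources used here. These comparisons ask which genes differ with the receptor chain and with CD103.

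Foxp3 is the forkhead transcription factor that defines Tregs, and signals from the IL-2 receptor through STAT5 help to start and maintain its expression. Helios and Eos are Ikaros-family zinc finger proteins, and Eos acts as a corepressor with Foxp3. Helios and neuropilin-1 are widely used to mark Tregs that arose in the thymus, whereas many Tregs of the gut arise in the periphery. GARP holds latent TGF-β on the surface of activated Tregs, neuropilin-1 binds semaphorins and VEGF, Gpr83 is a G protein-coupled receptor, folate receptor 4 belongs to the folate receptor family, and Capg caps actin filaments.

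Because the sort used a reporter at Foxp3, the sequence around that gene's start sites is shown first, with Gpr83 as the only surface gene among the members with a RefSeq window that holds any of the motifs searched. RefSeq promoter windows of GRCm38.p6 were found for Foxp3 (2 start sites), Nrp1, Gpr83, Izumo1r and Capg, and the 250 bases before each start were searched on both strands. The motifs were TTCNNNGAA (bound by STAT proteins), TGGGAA (the Ikaros-family core), TGTTTAC (forkhead) and TATAAA, and no matches overlapped. They occur in 7.02%, 21.6%, 3.17% and 12.4% of 32851 such windows. Matches are in capitals below. The whole window of the first Foxp3 start is given (chrX:7579426-7579675, plus strand), with TATAAA 32 bases before the start. For the second Foxp3 start, 30 bases around TTCNNNGAA are given (chrX:7580334-7580363, plus strand, 139 bases before the start). For Gpr83, 30 bases around TGGGAA are given (chr9:14860078-14860107, plus strand, 120 bases before the start).
Foxp3 start 1: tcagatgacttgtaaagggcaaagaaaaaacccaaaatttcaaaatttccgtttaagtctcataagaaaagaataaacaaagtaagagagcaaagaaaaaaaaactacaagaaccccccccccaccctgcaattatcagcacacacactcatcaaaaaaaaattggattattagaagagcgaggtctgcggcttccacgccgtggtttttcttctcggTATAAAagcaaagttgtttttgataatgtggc
Foxp3 start 2: gagctctgttTTCCAAGAAcgggcattagt
Gpr83: tgtgagctgcgcTGGGAActgcggtgctgc
Capg held TGGGAA at 138 and 58 bases before its start. The windows of Nrp1 and Izumo1r held none of the 4 motifs, which says only that these letters are not in those windows.

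The values are log2 signals, so a difference of 1 is a change of 2-fold. Array medians lay between 3.15 and 3.23. Differences were tested with limma over all 12792 genes with Benjamini-Hochberg adjustment, and a gene is said to rise or fall at an adjusted p under 0.05. Errors of differences are standard errors (SE) and errors of groups are standard deviations (SD) over 3 arrays. Whether the arrays are separate animals is not stated, so p-values measure the spread between these arrays. With 3 arrays against 3, an exact 2-sided permutation test of a single gene cannot go below 0.1, which is the value for every gene whose groups do not overlap. In bulk RNA, fewer cells that express a gene and less RNA per cell cannot be told apart. The 2 comparisons with WT share the WT arrays, so their values are given side by side and not as independent results.

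The transcription factors had levels close to WT or somewhat above it, and 0 of the 3 rose or fell with limma in any comparison. At an unadjusted p under 0.05, 1 of the 3 (Ikzf2) was higher in Y3 and in Y3/CD103-/-, as were 13.4% and 7.90% of all genes. Adjusted p under 0.05 with a higher value was found for 0.618% of all genes in Y3 and 0.555% in Y3/CD103-/-. Foxp3, by which the cells were sorted, read 9.37, 9.48 and 9.29 on the WT arrays. It read 9.52, 9.35 and 9.68 on the Y3 arrays and 9.51, 9.62 and 9.53 on the Y3/CD103-/- arrays. The Y3 values overlap those of WT, while the lowest Y3/CD103-/- value lies just above the highest WT value. The log2 difference from WT was 0.14 in Y3 and 0.17 in Y3/CD103-/-, with 95% intervals of -0.19 to 0.47 and -0.16 to 0.50. The cells were gated on a reporter joined to Foxp3, and how far the gate shapes this level was not tested. A second feature, which the annotation shares between Foxp3, Ccdc22 and Ppp1r3f, read 7.15 to 7.21 for WT, 7.06 to 7.39 for Y3 and 7.19 to 7.40 for Y3/CD103-/-. On that feature all 3 groups overlap, unlike Y3/CD103-/- and WT on Foxp3's own feature.

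Ikzf2, which encodes Helios, was the factor with the clearest separation. It read 9.05, 9.06 and 9.04 in WT, 9.39, 9.42 and 9.39 in Y3, and 9.38, 9.43 and 9.50 in Y3/CD103-/-. All 6 altered arrays lie above all WT arrays, and the spread within WT (SD 0.0092) and Y3 (SD 0.017) is far smaller than the gap. The spread within Y3/CD103-/- was wider (SD 0.0615). The differences were 0.35 ± 0.13 (SE) in Y3 and 0.38 ± 0.13 in Y3/CD103-/-, with intervals of 0.05 to 0.64 and 0.09 to 0.68. Neither passed after adjustment in limma (adjusted p = 0.228 and 0.238). They did pass when the prior variance was allowed to follow the signal (0.0258 and 0.0128). That prior also raised the calls over all genes, from 101 to 346 in Y3 and from 107 to 309 in Y3/CD103-/-. Groups that do not overlap with the altered one higher were found for 19.0% of all genes in Y3 and 10.7% in Y3/CD103-/-. With arrays centred on the median of the tested genes, Ikzf2 differed by 0.18 in Y3 (adjusted p = 0.627 with limma) and 0.37 in Y3/CD103-/- (0.265).

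Ikzf4, which encodes Eos, read 6.48, 6.22 and 6.43 in WT, 6.41, 6.62 and 6.38 in Y3, and 6.39, 6.60 and 6.44 in Y3/CD103-/-. The 3 groups overlap. Its differences from WT were 0.09 (interval -0.24 to 0.43) and 0.10 (-0.23 to 0.44). Capg, the actin-capping protein among the markers, also overlapped in every comparison. It read 6.92, 6.94 and 6.95 in WT, 6.92, 6.91 and 7.26 in Y3, and 6.94, 6.90 and 7.05 in Y3/CD103-/-, with the third array of each altered group highest. Its differences from WT were 0.09 (-0.24 to 0.42) and 0.03 (-0.31 to 0.36). The intervals of Foxp3, Ikzf4 and Capg reach as far as 0.50 on the log2 scale, so smaller changes than that were not resolved by these arrays.

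**Figure D1:**
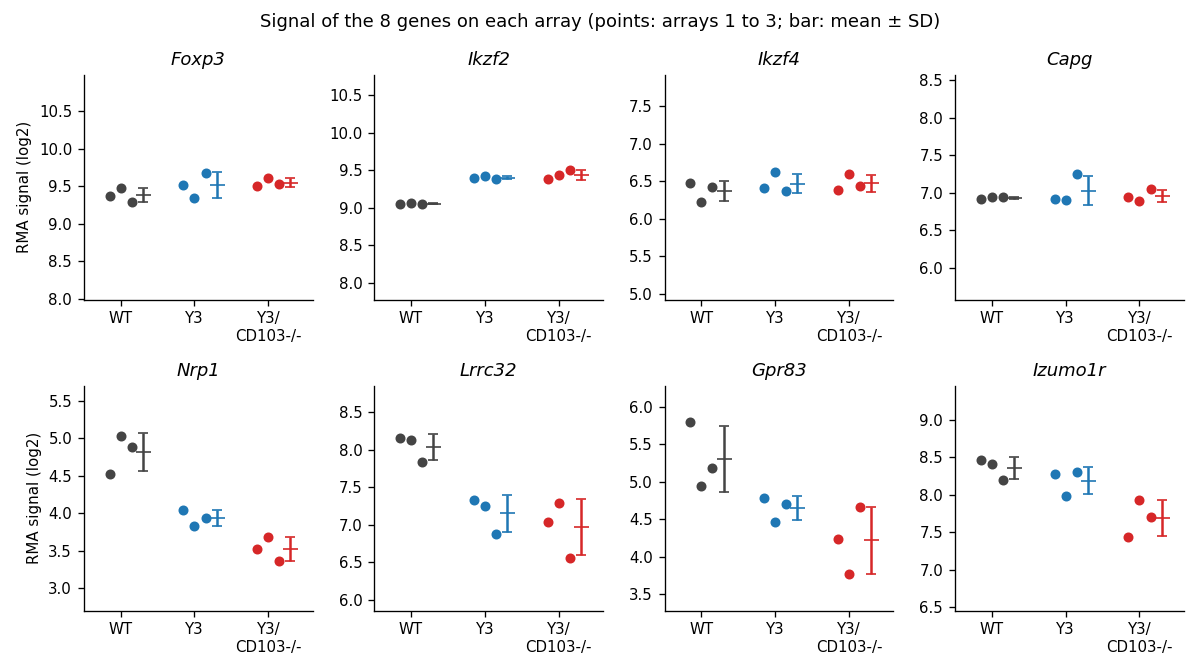
Log2 signal of each gene (vertical axes, each spanning 3 log2 units) in the 3 genotypes (horizontal axes); points are arrays and bars are the mean ± SD of 3 arrays. Foxp3, Ikzf4 and Capg stay level, Ikzf2 lies slightly higher on all altered arrays, and Nrp1, Lrrc32 and Gpr83 lie lower on all altered arrays.

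The 4 surface genes had lower means than WT in both altered groups. Nrp1, the neuropilin that marks thymic Tregs, read 4.53, 5.03 and 4.88 in WT, 4.05, 3.82 and 3.94 in Y3, and 3.52, 3.69 and 3.37 in Y3/CD103-/-. The 3 groups form separate steps, with WT highest and Y3/CD103-/- lowest. Nrp1 fell by 0.88 ± 0.17 on the log2 scale in Y3 (1.84-fold, adjusted p = 0.0497 with limma) and by 1.29 ± 0.17 in Y3/CD103-/- (2.45-fold, adjusted p = 0.00976). It was the only 1 of the 8 genes called in Y3, where 0.790% of all genes were called and 0.172% fell. In Y3/CD103-/- it was 1 of 2 called, beside 0.836% of all genes called and 0.281% that fell. The fall in Y3 held without WT array 1 (adjusted p = 0.0328) and was lost without any 1 of the other 8 arrays. The adjusted p was 0.118 and 0.109 without WT arrays 2 and 3, and 0.156, 0.126 and 0.210 without Y3 arrays 1, 2 and 3. Without a Y3/CD103-/- array it was 0.0616 to 0.0622. The fall in Y3/CD103-/- held in 8 of 9 such fits and missed without Y3/CD103-/- array 3 (0.0510). With only the 6 arrays of a comparison fitted, neither fall of Nrp1 passed (0.0797 and 0.0639), and the one in Y3 also missed without a filter on dim genes (0.0914) and with arrays centred on their median (0.0591). The signal of Nrp1 was dim, at 1.30 to 1.85 above the array median in WT, 0.63 to 0.85 in Y3 and 0.16 to 0.54 in Y3/CD103-/-. The fold and the step between the altered groups thus rest on signals close to the array median, and how far such signals understate a change was not tested.

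Lrrc32, whose product GARP displays latent TGF-β, read 8.15, 8.13 and 7.84 in WT, 7.33, 7.25 and 6.87 in Y3, and 7.04, 7.29 and 6.56 in Y3/CD103-/-. Every altered array lies below every WT array, and the 2 altered groups overlap each other. It fell by 1.07 ± 0.21 in Y3/CD103-/- (2.11-fold, adjusted p = 0.0498 with limma). Against WT, Y3 differed by -0.89 ± 0.21 and missed the threshold (adjusted p = 0.0898). The call in Y3/CD103-/- lay at the threshold and was lost on leaving out any 1 of the 9 arrays. Its adjusted p was then 0.109, 0.120 and 0.0762 without WT arrays 1, 2 and 3, and 0.0863, 0.0813 and 0.0746 without Y3 arrays 1, 2 and 3. It was 0.102, 0.0552 and 0.146 without Y3/CD103-/- arrays 1, 2 and 3. The size of the difference stayed between -1.24 and -0.87. The call was also lost with only the 6 arrays fitted (0.141), without the filter (0.0975), with array weights (0.0737) and under the other scalings (0.0506 to 0.0540). With the trended and robust prior, Lrrc32 passed in Y3 (0.0111).

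Gpr83, the G protein-coupled receptor of the set, read 5.80, 4.94 and 5.18 in WT, 4.78, 4.46 and 4.70 in Y3, and 4.24, 3.76 and 4.66 in Y3/CD103-/-. All altered arrays lie below WT, with WT array 1 well above the other WT arrays. The differences from WT were -0.66 ± 0.26 for Y3 (adjusted p = 0.242) and -1.09 ± 0.26 for Y3/CD103-/- (adjusted p = 0.0924), both short of the threshold. Without WT array 1 they were -0.41 and -0.84. With the trended and robust prior, Gpr83 passed in Y3/CD103-/- (adjusted p = 0.0332) and not in Y3 (0.184). Izumo1r, which encodes folate receptor 4, read 8.47, 8.41 and 8.20 in WT, 8.28, 7.98 and 8.30 in Y3, and 7.44, 7.92 and 7.70 in Y3/CD103-/-. Here Y3 overlaps WT, and only the Y3/CD103-/- arrays lie apart, below all others. Its differences were -0.17 ± 0.18 in Y3 (interval -0.56 to 0.21) and -0.67 ± 0.18 in Y3/CD103-/- (interval -1.06 to -0.28, adjusted p = 0.116), and neither passed. With the same change of prior, Izumo1r passed in Y3/CD103-/- (0.0106) and not in Y3 (0.513). Gpr83 and Izumo1r lie next to each other on chromosome 9 in GRCm38.p6, with 0 protein-coding genes between them. The coding genes on either side, Mre11a and Panx1, differed by -0.31 (adjusted p = 0.508) and 0.25 (0.585) in Y3/CD103-/- against WT.

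**Figure D2:**
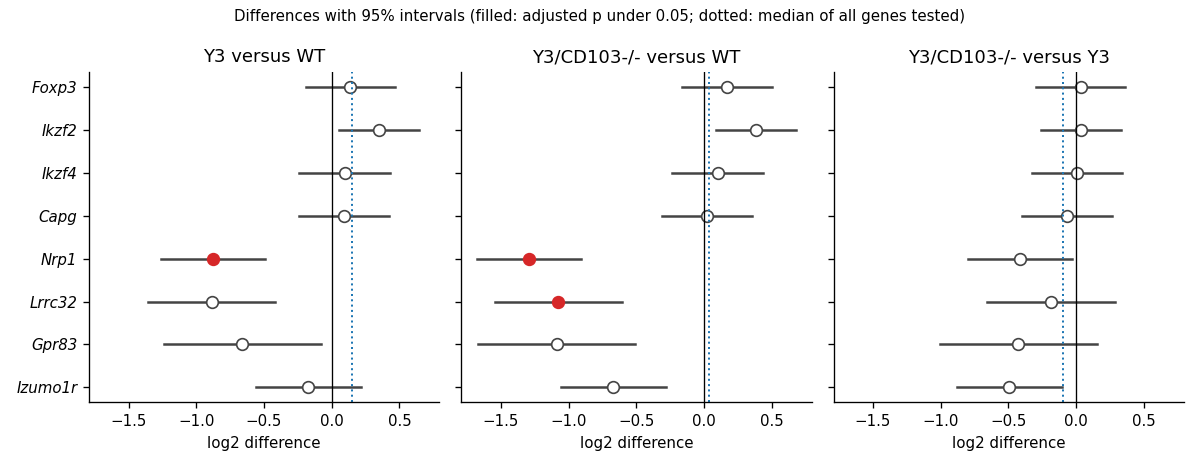
Log2 differences (horizontal axes) of the 8 genes in the 3 comparisons, with 95% intervals as lines; filled points have an adjusted p under 0.05 and dotted lines mark the median of all 12792 genes tested. Nrp1 is filled in both comparisons with WT and Lrrc32 only in Y3/CD103-/- versus WT, and none is filled in Y3/CD103-/- versus Y3.

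Set side by side by the place of their products, the 3 factors and the 4 surface genes lay on opposite sides of WT. All 4 surface genes were lower than WT in both altered groups under each scaling tried, including quantile normalization and both ways of centring the arrays. The 3 factors were higher than WT in both groups, except that Ikzf4 lay below WT in Y3 after quantile normalization (-0.082), and Foxp3 and Ikzf4 did (-0.028 and -0.071) when arrays were centred on the median of the tested genes. Values below WT were found for 29.5% of all genes in Y3 and 44.9% in Y3/CD103-/-. In Y3, 3 of 4 surface genes were lower with groups that do not overlap, against 4.93% of all genes, and in Y3/CD103-/- 4 of 4 were, against 6.68%. The same numbers were lower at an unadjusted p under 0.05, against 3.60% and 5.35% of all genes. Of all 8 members, 4 in Y3 and 6 in Y3/CD103-/- had groups that do not overlap in either direction, beside 23.9% and 17.4% of all genes, and 4 and 5 had an unadjusted p under 0.05, beside 17.0% and 13.3%. The median difference of the surface genes was -0.77 in Y3 and -1.08 in Y3/CD103-/-, and that of the factors 0.14 and 0.17, beside 0.15 and 0.04 over all genes. With each gene set to its WT mean, the mean of the surface genes was -0.52, -0.75 and -0.68 on the Y3 arrays and -1.07, -0.96 and -1.06 on the Y3/CD103-/- arrays. The mean of the factors was 0.17, 0.19 and 0.21, and 0.15, 0.28 and 0.22 on the same arrays. The genes were chosen and grouped with results of these data known. The contrast and the shares set beside it are thus a description and carry no test.

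**Figure D3:**
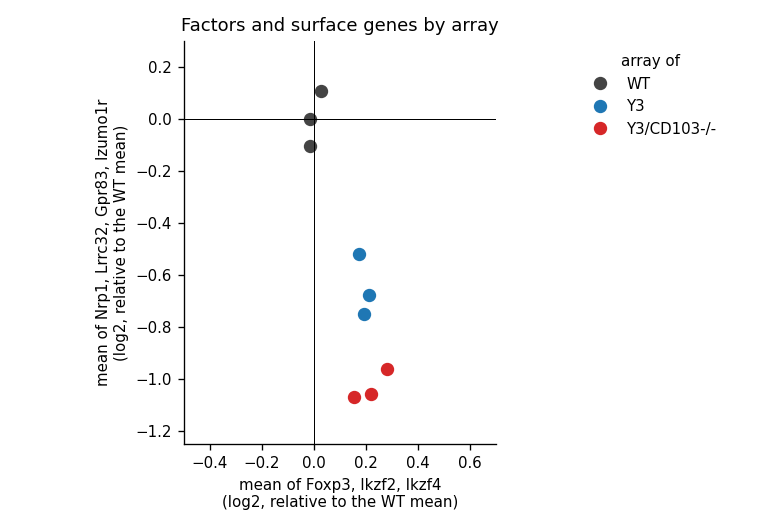
Mean log2 signal of the 4 surface genes (vertical axis) against that of the 3 factors (horizontal axis), each gene relative to its mean in WT; every point is 1 array. The Y3 arrays lie at -0.75 to -0.52 and the Y3/CD103-/- arrays at -1.07 to -0.96 on the vertical axis, while on the horizontal axis all altered arrays lie between 0.15 and 0.28.

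With CD103 lost on the Y3 background, 0 of the 8 genes were past the threshold with limma, where 0.00782% of all genes (1 gene, Itgae) passed. At an unadjusted p under 0.05, 2 of the 8 were lower and 0 higher, against 8.12% and 1.78% of all genes (9.90% in all). These were Izumo1r (-0.50 ± 0.18, interval -0.88 to -0.11, adjusted p = 0.432) and Nrp1 (-0.41 ± 0.17, interval -0.80 to -0.03, adjusted p = 0.475), and both had groups that do not overlap, as did 14.4% of all genes in that direction. No member had higher groups that do not overlap (4.11% of all genes, and 18.6% in both directions). The differences of Gpr83 (-0.43, interval -1.01 to 0.15) and Lrrc32 (-0.19, -0.66 to 0.28) spanned 0. Foxp3, Ikzf2 and Ikzf4 differed by 0.033, 0.035 and 0.0061, Capg by -0.067, and each interval spanned 0. Of the 8 genes 5 were below Y3, beside 66.2% of all genes. Itgae, the gene deleted in Y3/CD103-/-, read 7.93 ± 0.12 (SD, n = 3) for WT, 9.32 ± 0.20 for Y3 and 6.52 ± 0.42 for Y3/CD103-/-, lowest in the group labelled as lacking it.

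Genes that work with these proteins were counted from lists. For all list counts at an unadjusted p under 0.05, the shares over all genes were 13.4% higher and 3.60% lower in Y3. In Y3/CD103-/- these shares were 7.90% and 5.35%. Of the other Ikaros-family genes, 0 of 3 passed in either comparison with WT by limma, and 0 were past an unadjusted p of 0.05. Ikzf1 (Ikaros) differed by 0.17 in Y3 and -0.16 in Y3/CD103-/-, and Ikzf5 by 0.18 and -0.14. Of the other FOXP genes, 0 of 2 passed, and at an unadjusted p under 0.05 Foxp4 was above WT in Y3 (0.59, adjusted p = 0.122) and Foxp1 below it in Y3 (-0.49, 0.224) and in Y3/CD103-/- (-0.47, 0.302). Of 35 regulators and partners of Foxp3, Runx3, which binds the Foxp3 locus with CBFβ, was the only gene to rise in Y3 (0.83 ± 0.16, adjusted p = 0.0455), and 0 passed in Y3/CD103-/-. The rise of Runx3 was lost in each of the 9 fits without an array (adjusted p from 0.0596 to 0.221) and after quantile normalization (0.0759). In Y3/CD103-/- the smallest p were those of Gata3 (-0.60, adjusted p = 0.0847) and Runx3 (0.69, 0.0872). Gata3, named after its values were seen, differed by -0.69 in Y3 (0.0551). At an unadjusted p under 0.05, 9 regulators were higher and 3 lower in Y3, and 7 and 5 in Y3/CD103-/-, and their medians of 0.18 and 0.12 stand beside 0.15 and 0.04 over all genes.

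Around GARP, Furin, the protease that processes pro-TGF-β, rose in Y3/CD103-/- (1.03 ± 0.19, adjusted p = 0.0337), the only 1 of 10 other genes of that list to pass, and 0 passed in Y3. That rise held without WT array 2 (adjusted p = 0.0417) and was lost without any 1 of the other 8 arrays (0.0586 to 0.101). Tgfb1, the cargo of GARP, named after its values were seen, read 8.04 ± 0.15 for WT, 7.99 ± 0.10 for Y3 and 8.14 ± 0.13 for Y3/CD103-/-. At an unadjusted p under 0.05, 3 of these 10 genes were higher and 0 lower in Y3, and 3 and 1 in Y3/CD103-/-. Itgb8 and Tgfbr1 were also named after their values were seen. Itgb8 differed by 0.74 in Y3 (adjusted p = 0.0891 with limma) and 0.75 in Y3/CD103-/- (0.0888), and Tgfbr1 by -0.36 (0.385) and -0.92 (0.0669). Among 13 other neuropilin, semaphorin and plexin genes 0 passed with limma, with 4 higher and 0 lower in Y3 and 2 and 0 in Y3/CD103-/- at an unadjusted p under 0.05. Sema7a differed by 0.88 (adjusted p = 0.102) and 0.73 (0.185), and Sema4d by 0.54 (0.166) and 0.60 (0.147). Among 3 other folate receptor and transporter genes 0 passed, and 0 were past an unadjusted p of 0.05, with differences in Y3/CD103-/- of -0.35 for Slc46a1 and 0.28 for Slc19a1. Of the 11 other gelsolin-family and capping genes 0 passed, with 3 higher and 0 lower in Y3 and 2 and 0 in Y3/CD103-/- at an unadjusted p under 0.05. Twf1 differed by 0.63 (adjusted p = 0.130) and 0.73 (0.0944), and Gsn, the gelsolin gene, by 0.47 (0.259) and -0.08 (0.905).

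Other surface and signature genes of Tregs divided in the same comparisons. Of 28 tested, 1 rose (Itgae) and 2 fell in Y3, and 4 fell in Y3/CD103-/-. At an unadjusted p under 0.05, 5 were higher and 11 lower in Y3, beside 13.4% and 3.60% of all genes. In Y3/CD103-/- 4 were higher and 12 lower, beside 7.90% and 5.35% of all genes. Klrg1, a lectin-like receptor of differentiated Tregs, went from 8.36 ± 0.04 in WT to 6.31 ± 0.25 and 6.26 ± 0.71, and Socs2, a STAT5-induced inhibitor, from 5.37 ± 0.14 to 3.25 ± 0.38 and 3.86 ± 0.63. Both fell in both groups (adjusted p = 0.0125 and 0.0122 for Klrg1, 0.0119 and 0.0447 for Socs2). Without Y3 array 1 or 3 neither passed in Y3 (adjusted p from 0.0815 to 0.0984). The fall of Socs2 in Y3/CD103-/- passed without Y3/CD103-/- array 2 (0.0122) and not without any other array (0.0556 to 0.147). Il2ra, the IL-2 receptor α chain, fell in Y3/CD103-/- (-0.86, adjusted p = 0.0258), a call that held without Y3 array 2 (0.0463) and not without any other array (0.0527 to 0.0809). Itgae rose in Y3 (adjusted p = 0.0169) and fell in Y3/CD103-/- (0.0159). Its rise was lost without WT array 2 or 3 or Y3 array 1 or 3 (0.0509 to 0.113), and its fall without WT array 1 (0.0538). The list medians were -0.17 in Y3 and -0.22 in Y3/CD103-/-. Ctla4, Tnfrsf18 and Tigit, named after their values were seen, differed from WT by -0.09, 0.31 and 0.07 in Y3 and by 0.07, 0.20 and 0.10 in Y3/CD103-/-, and none passed.

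**Figure D4:**
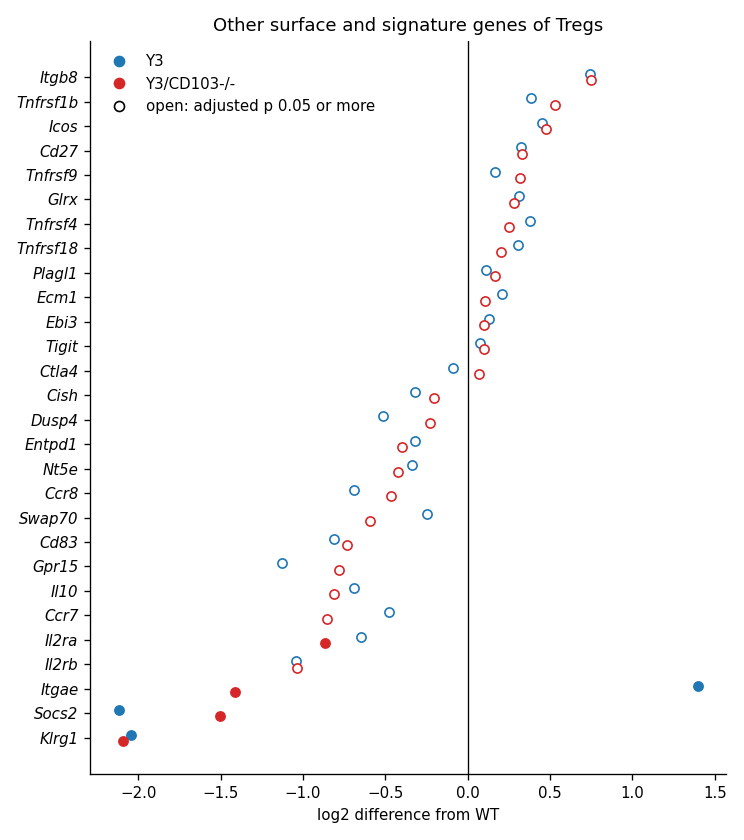
Log2 difference from WT (horizontal axis) of 28 other surface and signature genes of Tregs in Y3 (blue) and Y3/CD103-/- (red), ordered by the latter; filled points have an adjusted p under 0.05. Klrg1 and Socs2 lie between -2.12 and -1.51 in both groups, and Itgae is at 1.40 in Y3 and -1.41 in Y3/CD103-/-.

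The genes whose values followed a member most closely over the 9 arrays were found by the root mean square difference of mean-centred log2 values, among 11374 genes per member. For Nrp1 these were Sccpdh (0.157), Ugcg (0.185) and Tmem64 (0.197), against a root mean square of 0.559 for Nrp1 about its own mean. For Lrrc32 they were Ugcg (0.173), Tmem64 (0.184) and Rasa3 (0.195), against 0.521. Ugcg, which encodes glucosylceramide synthase, was near both genes that fell, at -0.90 in Y3 (adjusted p = 0.0387) and -1.27 in Y3/CD103-/- (adjusted p = 0.00917). In Y3, Ugcg passed without Y3/CD103-/- array 2 (0.0443) and not without any other array (0.0526 to 0.204), and in Y3/CD103-/- it passed in all 9 such fits. For Foxp3 they were Krit1 (0.0551), Ptk2b (0.0618) and Prrc2c (0.0627), against 0.121, so these are level genes of small range. These genes were picked for following a member on the same arrays, so the falls of Ugcg are not a separate result. The arrays also share group membership and scaling, so this is a description.

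Marker lists of other cell types that a sort could hold were read on the same arrays. Of 6 T cell genes 0 passed with limma (1 lower in each altered group at an unadjusted p under 0.05), with means of 9.04 to 9.18 for WT, 9.07 to 9.14 for Y3 and 8.89 to 9.10 for Y3/CD103-/-. The T cell genes of smallest p were Cd28, a costimulatory receptor (-0.65 in Y3, adjusted p = 0.107, and -0.61 in Y3/CD103-/-, 0.145), and Cd3e (-0.11, 0.702, and -0.28, 0.415). Epithelial markers were lower for 13 of 13 genes in both groups, 0 of which passed with limma (6 and 3 at an unadjusted p under 0.05), and their mean was 5.36 to 6.36 for WT, 4.26 to 4.76 for Y3 and 4.26 to 6.01 for Y3/CD103-/-. The epithelial genes of smallest p were Fabp2, a fatty acid-binding protein of enterocytes (-2.74, adjusted p = 0.0557, and -2.60, 0.0669), and Car1, a carbonic anhydrase (-2.31, 0.111, and -1.48, 0.328). Macrophage, monocyte and dendritic cell markers, from cells that can also express Nrp1 and Capg, had means of 4.57 to 5.36 for WT, 4.37 to 4.54 for Y3 and 4.86 to 4.95 for Y3/CD103-/-. Of 9 tested, H2-Aa, a class II MHC chain, fell in Y3 (-1.80, adjusted p = 0.0264). That call was lost without WT array 2 or 3 or any Y3 array (0.0602 to 0.124). In Y3, 1 of the 9 was above and 5 below WT at an unadjusted p under 0.05, and in Y3/CD103-/- 0 passed, with 1 on either side. Nrp1 was lowest in Y3/CD103-/-, where this marker mean was above that of every Y3 array. On the WT arrays, in contrast, Nrp1 and this mean had the same order. They were 4.53 and 4.57 on array 1, 4.88 and 5.19 on array 3, and 5.03 and 5.36 on array 2. Whether such cells add to the signal of Nrp1 was not tested. With the epithelial mean as a covariate, added after seeing the data, the difference of Nrp1 was -0.74 in Y3 (adjusted p = 0.342) and -1.20 in Y3/CD103-/- (0.0540), and with the macrophage and dendritic mean -0.60 (0.476) and -1.23 (0.0142). For Lrrc32 in Y3/CD103-/- it was -0.98 (0.163) and -1.11 (0.0620). Calls over all genes also dropped under these covariates, from 101 to 3 and 5 in Y3 and from 107 to 22 and 75 in Y3/CD103-/-. Both marker means were lower on every Y3 array than on every WT array. In Y3 versus WT, genotype and marker level thus cannot be told apart, and a call lost under a covariate does not show its cause.

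**Figure D5:**
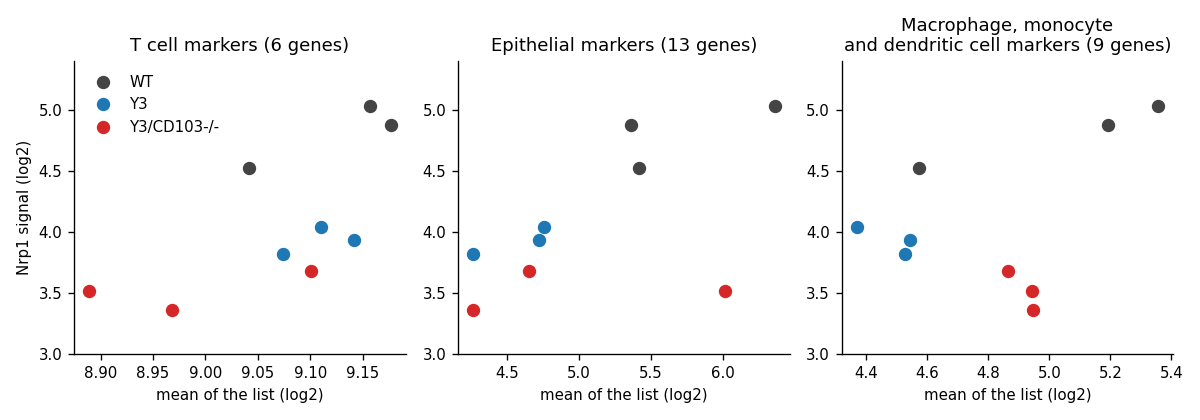
Log2 signal of Nrp1 (vertical axis) against the mean log2 level of T cell, epithelial and macrophage, monocyte and dendritic cell markers (horizontal axes) on each array. The Y3/CD103-/- arrays have the lowest Nrp1, at 3.37 to 3.69, with macrophage and dendritic marker means of 4.86 to 4.95, above the Y3 arrays at 4.37 to 4.54. Within WT, Nrp1 and that mean are both lowest on array 1 (4.53 and 4.57) and both highest on array 2 (5.03 and 5.36).

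Stromal and endothelial markers, from cells that can express Nrp1 and Lrrc32, had means of 4.85 to 5.04 for WT, 4.92 to 5.13 for Y3 and 4.87 to 5.18 for Y3/CD103-/-. Of 5 tested 0 passed with limma (1 higher in each group at an unadjusted p under 0.05), and the endothelial genes Cdh5, Tek, Vwf and Kdr were too dim to test. The smallest p here were those of Acta2, smooth muscle actin (0.49, adjusted p = 0.231, and 0.51, 0.279), and Col1a1, a collagen chain (0.10, 0.827, and 0.44, 0.389). B and plasma cell markers had 0 of 5 past the threshold (0 higher and 2 lower in Y3, and 0 in Y3/CD103-/-, at an unadjusted p under 0.05), with means of 4.60 to 4.87, 4.32 to 4.58 and 4.39 to 4.91. Jchain, the joining chain of secreted antibody (-1.13, adjusted p = 0.206, and -0.24, 0.846), and Cd79a (-0.37, 0.251, and -0.0037, 0.994) had the smallest p. Of 7 markers of CD8, γδ and NK cells, Nkg7 (2.03 and 1.93) and Gzma (1.22 and 1.30) rose in Y3 and in Y3/CD103-/-. The list mean, which holds both, was 4.89 to 5.07 for WT, 5.43 to 5.61 for Y3 and 5.16 to 5.61 for Y3/CD103-/-. At an unadjusted p under 0.05, 3 of the 7 were higher and 0 lower in Y3, and 2 and 0 in Y3/CD103-/-. Below WT lay 2 of the 7 in Y3 and 3 in Y3/CD103-/-. The list medians were 0.24 and 0.31, beside 0.15 and 0.04 over all genes. Of 6 innate lymphoid markers, which Tregs can express too, Klrg1, Il7r (-1.42 and -1.16) and Il17rb (-1.63 and -2.38) fell in both groups. At an unadjusted p under 0.05, 0 of these 6 were higher and 3 lower in Y3, and 2 and 3 in Y3/CD103-/-. In each altered group 2 of the 6 lay above WT. In Y3, Gzma was lost without Y3 array 1 (adjusted p = 0.0815), Il7r without Y3 array 1 or 3 (0.0850 and 0.0984), and Il17rb without any WT or Y3 array (0.0504 to 0.145). In Y3/CD103-/-, Il7r passed without Y3 array 1 or 2 and not without any other array (0.0593 to 0.0989). The innate lymphoid list mean was 6.07 to 6.38, 5.22 to 5.69 and 5.36 to 5.54. The part of any of these cells in the differences of the 8 genes was not tested.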

How the data were processed

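RNA of 9 sorted Treg samples was amplified, biotin-labelled and hybridised to Affymetrix Gene ST2.0 arrays. The authors deposited log2 signal values (RMA, according to the submitters' processing notes), whose scale was read from the values. Version, settings and genome build of that step were not given in the sources used here. RMA includes background correction and quantile scaling, so no further scaling was done, although the spread still differed between arrays (SD 1.70 to 1.88). Of 39137 features, 23521 named exactly 1 gene, and the brightest was kept per gene; 1814 with several genes and 13802 with none were left out. Genes above the median of their array on at least 3 arrays were tested (12792). Group means of all 9 arrays were fitted without a block with limma 3.58.1 in R 4.3.3 (10.8 degrees of freedom), 2-sided. Intervals are 95% and cover the spread between these arrays. The fit was tested on simulated data. The number of arrays limits the precision: the 95% interval of the median gene reached 0.45 to either side. All 8 members and each list gene that passed were named. In a list with no gene that passed, the 2 of smallest p in any comparison were named. Those named after their values were seen are marked. The members and lists were chosen with earlier results of these data known. Promoter windows come from RefSeq (GRCm38.p6).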

Additional observations from a re-analysis of the deposited data

How the results depend on the processing

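In all, 528 alternative values were computed for the 8 genes over the 3 comparisons, of which 467 kept their direction and side of the threshold, 34 lost and 7 gained a call, and 20 changed sign, all with a size of at most 0.082. In many of these settings the log2 differences of the 8 genes equalled the main ones, so direction could not change. These were a stricter or absent filter, the mean of all features, the trended and robust prior, the 6 arrays alone and the replicate block. The same holds for the threshold of 0.10 and for fits without an array outside the comparison. The count of genes called in Y3 versus WT (1) was 0 without a filter on dim genes, 0 with arrays centred on their median, 0 with only the 6 arrays compared, 0 with the replicate block and 0 with either marker mean as a covariate. It was 3 with a trended and robust prior and 2 at an adjusted p under 0.10, and it lay between 0 and 1 with 1 array left out. The count in Y3/CD103-/- versus WT (2) was 1 without the filter, after quantile normalization, with either centring, with array weights and with the macrophage and dendritic covariate. It was 0 with only the 6 arrays compared and with the epithelial covariate, 5 with the trended and robust prior, and 0 to 1 with an array left out. The replicate block left it at 2, and the replicate block moved the adjusted p of Nrp1 in Y3 to 0.0976. The labels do not say whether the replicate numbers pair the samples. Deviations of same-numbered arrays from their group means correlated between -0.04 and 0.11, which shows little shared effect but cannot settle the pairing. The count in Y3/CD103-/- versus Y3 stayed 0 in every alternative run. Sign changes in Y3 versus WT were those of Ikzf4 (-0.082 after quantile normalization, -0.071 centred on the tested genes, -0.052 and -0.043 with the epithelial and macrophage covariates), Foxp3 (-0.028, centred on the tested genes) and Capg (-0.052 and -0.075 under those 2 scalings). In Y3/CD103-/- versus WT, Capg was -0.023 after quantile normalization. In Y3/CD103-/- versus Y3, Foxp3 was -0.0016 with array weights, and Capg was 0.030 and 0.082 under the same 2 scalings. With 1 array left out, Capg ranged from -0.022 to 0.15, from -0.019 to 0.058 and from -0.13 to 0.047 in the 3 comparisons. In Y3/CD103-/- versus Y3, Foxp3 then ranged from -0.052 to 0.12, Ikzf4 from -0.057 to 0.080 and Lrrc32 from -0.35 to 0.017. The cause of these changes was not tested. Centring on the tested genes moved the median of all genes in Y3 from 0.15 to -0.02, quantile normalization moved it to 0.04, and the covariates and that centring were chosen after seeing the data. Over all genes, 79 rose and 22 fell in Y3, against 46 and 32 after quantile normalization and 46 and 54 with that centring.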
